A study of Homo sapiens with 2 samples.

Results

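The genes described here are the sensors of the unfolded protein response (ERN1, ERN2, EIF2AK3 and ATF6), the transcription factor XBP1, and known targets of the XBP1 and ATF6 branches (DNAJB9, SDF2L1, HERPUD1, EDEM1 and SEL1L). Every probe set that the platform annotation assigns to exactly one of these 10 symbols was taken, which gave 24 probe sets with 1 to 4 per gene. The annotation names 19775 genes by probe sets with a single symbol. Gene expression was measured in the Hodgkin lymphoma (HL) cell line L-428 after transfection with pcDNA6.2-GW/EmGFP-miR-PRAME, which expresses an artificial microRNA against PRAME, and with pcDNA6.2-GW/EmGFP-miR-neg as control. Both vectors carry the EmGFP marker, stable transfectants were selected with blasticidin, and whether a transfectant was a pool or a clone is not given in the sources used here. There was 1 Affymetrix HG_U133PLUS2.0 array for each condition, so that no test was possible and all differences compare these 2 arrays. The sample labels and the study name L-428 cells, whereas the general design text of the series names L-540 cells.

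Secreted and membrane proteins fold in the endoplasmic reticulum (ER). When unfolded proteins accumulate there, the transmembrane sensors IRE1 (encoded by ERN1 and, in gut and airway epithelium, ERN2), PERK (EIF2AK3) and ATF6 become active. IRE1 removes a short intron from XBP1 mRNA, which is then translated into the active factor XBP1s. PERK phosphorylates eIF2 alpha and favors translation of ATF4, and ATF6 is cut in the Golgi and its free part enters the nucleus. In the B cell lineage XBP1 is known for its role in plasma cells, which secrete large amounts of antibody. The study asked which genes are regulated by PRAME in HL cells, and the comparison here asks whether transcripts of this pathway differed between PRAME knock-down and control cells.

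Promoter sequences are shown because XBP1, HERPUD1 and SDF2L1 hold a known ER stress element within the window from 250 bases before to 50 bases after the transcription start (RefSeq, build GRCh38.p14). The 5 stretches are written 5′ to 3′ in the direction of transcription, with the motif in capitals. They come from XBP1 (chr22:28800553-28800671, minus strand), HERPUD1 (chr16:56931975-56932085, plus strand), SDF2L1 (chr22:21642064-21642174, plus strand), DNAJB9 (chr7:108569770-108569861, plus strand) and EDEM1 (chr3:5187518-5187659, plus strand). The capitals mark the ER stress response element ERSE in XBP1 and ERSE-II in HERPUD1 and, in reverse, in SDF2L1. In DNAJB9 and EDEM1 they mark only the shared core CCACG or its reverse.
XBP1: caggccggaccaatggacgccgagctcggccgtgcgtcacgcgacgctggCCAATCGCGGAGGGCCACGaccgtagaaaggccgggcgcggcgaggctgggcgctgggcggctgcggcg
HERPUD1: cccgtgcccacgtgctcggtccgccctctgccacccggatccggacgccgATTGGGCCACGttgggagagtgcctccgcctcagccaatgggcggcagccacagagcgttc
SDF2L1: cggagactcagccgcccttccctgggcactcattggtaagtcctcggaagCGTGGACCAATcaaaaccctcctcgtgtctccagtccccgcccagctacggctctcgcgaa
DNAJB9: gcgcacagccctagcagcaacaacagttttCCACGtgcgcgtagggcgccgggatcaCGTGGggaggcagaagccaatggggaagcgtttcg
EDEM1: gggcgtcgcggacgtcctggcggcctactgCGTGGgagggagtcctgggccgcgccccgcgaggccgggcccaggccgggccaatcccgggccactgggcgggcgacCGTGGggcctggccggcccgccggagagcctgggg

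The ERSE was searched as CCAAT followed after any 9 bases by CCACG, and ERSE-II as ATTGG followed after any 1 base by CCACG, both on either strand. The ERSE of XBP1 ends 33 bases before the transcription start, the ERSE-II of HERPUD1 106 bases and that of SDF2L1 177 bases before it. Of all 35116 windows, 0.0769% held the ERSE and 0.0541% held ERSE-II. The XBP1-binding core TGACGTGG was found in 0.729% of all windows and in none of the members. The core CCACG, chosen after the sequences were seen, is common. It was present in 42.1% of all 27305 genes with a window and in 7 of the 9 members with one. ERN2 had no window in the table used. A match of letters is a description of the window and no evidence of binding.

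The values are MAS5 signals on a linear scale. The log2 ratio of knock-down over control cells was centered by subtracting the median of all kept probe sets (0.045), and a probe set was kept when its mean log2 signal reached the median of all probe sets (a signal of 97.7). Of the 24 member probe sets, 23 were kept. The signal of PRAME itself (204086_at) was 1251 in the PRAME knock-down cells and 2115 in the control cells, a ratio of 0.573 after centering. The log2 ratios of different kept probe sets within a gene scattered with a pooled SD of 0.33, which is no spread between cultures. Because the scatter of the ratios is larger at low signals, each probe set was also placed among the 1000 kept probe sets nearest in mean signal.

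In the PRAME knock-down cells XBP1 mRNA and its targets EDEM1 and DNAJB9 had higher signals than in the control cells. By the brightest probe set only EDEM1 of these passed 1.5-fold (1.53-fold), with 1.46-fold for XBP1 and 1.15-fold for DNAJB9. SEL1L (1.11-fold in its brightest probe set), SDF2L1 and the main probe set of HERPUD1 had nearly equal signals. Of the sensors, ERN1, EIF2AK3 and ATF6 differed by less than 1.5-fold, and ERN2 was at least 2-fold higher from a low signal. At the threshold of 1.5-fold, 4 of 23 kept member probe sets were higher and 1 was lower, against 7.38% higher and 6.54% lower among all 22379 kept probe sets with a single symbol. At 2-fold, both probe sets of ERN2 were higher and 1 of HERPUD1 was lower (1.52% and 0.983% of all). The ERN2 probe sets passed the filter only through their signals in the knock-down cells, so that these counts give no support for a shift of the members. The other 2 higher probe sets at 1.5-fold were those of EDEM1 and 1 of DNAJB9. With the kept probe set of highest signal for each gene, 2 of the 10 members (ERN2 and EDEM1) were at least 1.5-fold higher and none was lower, against 7.54% higher and 5.42% lower among 11794 genes. The median log2 ratio of the 10 members was 0.066, and that of all genes was -0.0069. Without ERN2, 1 of 9 members was at least 1.5-fold higher, and the median was -0.024.

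**Figure D1:**
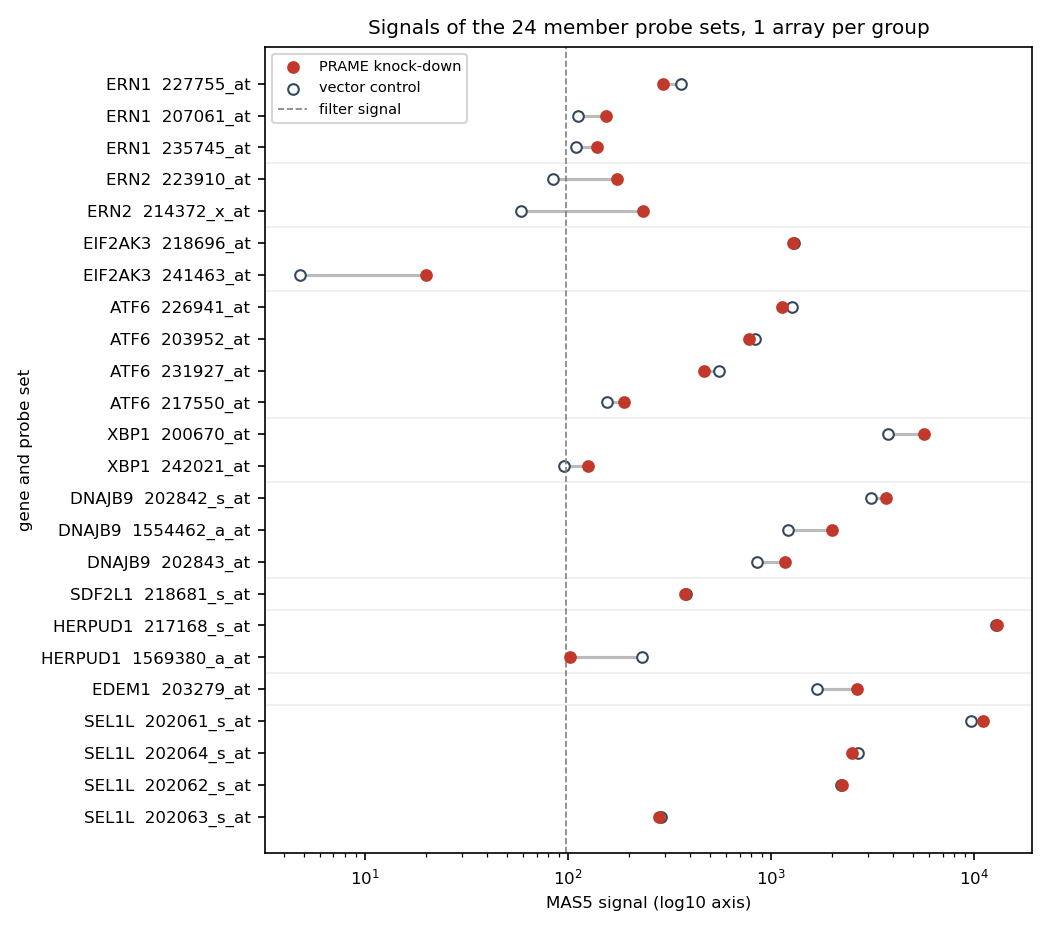
MAS5 signals (log10 axis) of the 24 member probe sets in PRAME knock-down cells (filled red) and control cells (open), with 1 array for each condition and a dashed line at the filter signal of 97.7. XBP1 200670_at, all DNAJB9 probe sets and EDEM1 lie to the right in the knock-down cells, HERPUD1 1569380_a_at lies to the left, and the SEL1L and SDF2L1 pairs nearly overlap. The widest pairs to the right are those of ERN2 and EIF2AK3 241463_at, at low signals. ERN1 207061_at and 235745_at and ATF6 217550_at also lie to the right.

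ERN1 encodes IRE1 alpha, the kinase and endoribonuclease that splices XBP1 mRNA. Its brightest probe set, 227755_at, gave 293 in the PRAME knock-down cells and 359 in the control cells (log2 ratio -0.34). The signal of 207061_at was 154 in the knock-down cells and 112 in the control cells (log2 ratio 0.41), and 235745_at had 138 and 109 (log2 ratio 0.29). The 3 probe sets of ERN1 thus differed in direction, and each differed by less than 1.5-fold. Their range of 0.75 was wider than in 79.0% of 1556 further genes measured by 3.

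ERN2 encodes IRE1 beta, the paralog known from mucus-producing epithelium. The signal of 223910_at was 175 in the PRAME knock-down cells and 84.0 in the control cells (2.02-fold higher). For 214372_x_at the signal was 233 in the knock-down cells and 58.4 in the control cells (3.87-fold higher). Both control signals were below the filter, so that the size of the ratio is not well determined. Among the 1000 probe sets of nearest signal, 7.0% had a higher log2 ratio than 223910_at and 0.1% had a higher one than 214372_x_at. The ending _x_at marks a probe set with probes that also match other sequences. With an offset of 64 added to both signals the log2 ratios were 0.65 for 223910_at and 1.24 for 214372_x_at.

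EIF2AK3 encodes PERK, the kinase that lowers translation under ER stress. The signal of 218696_at was 1288 in the PRAME knock-down cells and 1297 in the control cells (log2 ratio -0.055). The other probe set, 241463_at, was below the filter with signals of 20.0 in the knock-down cells and 4.78 in the control cells, and no ratio is given for it.

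ATF6, a membrane-bound transcription factor of the leucine zipper type, was measured by 4 probe sets. For 226941_at the signal was 1133 in the PRAME knock-down cells and 1263 in the control cells (log2 ratio -0.20). It was 783 and 831 for 203952_at (log2 ratio -0.13), and 468 in the knock-down cells and 554 in the control cells for 231927_at (log2 ratio -0.29). The dimmest one, 217550_at, gave 188 in the knock-down cells and 156 in the control cells (log2 ratio 0.22). The 3 probe sets with higher signals were thus slightly lower in the knock-down cells, and between 25.9% and 40.0% of their nearest probe sets had a lower log2 ratio.

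XBP1 is the factor that joins IRE1 to its target genes. The signal of 200670_at was 5674 in the PRAME knock-down cells and 3768 in the control cells, a difference of 1.46-fold (log2 ratio 0.55). Only 1.5% of the 1000 probe sets of nearest signal had a higher log2 ratio, and their median was -0.069. The second probe set, 242021_at, gave 126 in the knock-down cells and 95.9 in the control cells (log2 ratio 0.34), and 37.4% of its nearest probe sets had a higher log2 ratio. The control signal of 242021_at was below the filter, so that it was kept only through the knock-down cells. XBP1 lay just below the 1.5-fold threshold and passed it without centering (0.59), after quantile normalization (0.62), after subtraction of the trend with signal by loess (0.60) and with a filter at the 75th percentile (0.60). It stayed below it with the offset (0.54), without probe sets that end in _s_at, _x_at or _a_at (0.53), without a filter (0.45) and with the median over its probe sets (0.44). The log2 ratio of 242021_at was 0.13 after loess. Probe positions were not used here, so that spliced and unspliced XBP1 mRNA were not told apart.

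DNAJB9 encodes ERdj4, a co-chaperone of BiP in the ER and a known XBP1 target. All 3 of its probe sets were higher after PRAME knock-down. The signal of 1554462_a_at was 1986 in the knock-down cells and 1215 in the control cells (1.58-fold higher), and 202843_at had 1170 and 851 (1.33-fold higher). The brightest one, 202842_s_at, gave 3693 in the knock-down cells and 3100 in the control cells (1.15-fold higher). In order of these 3 probe sets, 1.4%, 6.3% and 14.3% of the nearest probe sets had a higher log2 ratio. The direction was thus shared, and the size depended on the probe set. Without a filter 1554462_a_at was below the threshold (0.57), since the centering then used all probe sets.

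SDF2L1 encodes an ER protein that works with BiP and ERdj co-chaperones and is known as a strongly inducible gene of the unfolded protein response. Its single probe set 218681_s_at gave 378.6 in the PRAME knock-down cells and 379.9 in the control cells (log2 ratio -0.050). Of the nearest probe sets, 45.7% had a lower log2 ratio, so that SDF2L1 lay in the middle of its signal range.

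HERPUD1 encodes a membrane protein of ER-associated degradation (ERAD), which brings misfolded proteins to the proteasome. Its 2 probe sets gave different results. The signal of 217168_s_at was 12992 in the PRAME knock-down cells and 12803 in the control cells (log2 ratio -0.024). For 1569380_a_at it was 102 in the knock-down cells and 232 in the control cells (2.35-fold lower), and only 0.2% of its nearest probe sets had a lower log2 ratio. The range of 1.21 between both was wider than in 97.7% of 3104 further genes measured by 2. The ending _a_at marks a probe set designed for several transcripts of one gene, and which transcripts the 2 probe sets detect was not analyzed here.

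EDEM1 encodes a lectin-like protein that directs misfolded glycoproteins to ERAD and is a known XBP1 target. Its single probe set 203279_at gave 2656 in the PRAME knock-down cells and 1686 in the control cells (1.53-fold higher, log2 ratio 0.61). Of the 1000 nearest probe sets, 1.8% had a higher log2 ratio. EDEM1 was below the threshold when no filter was used (0.52), since the centering then used all probe sets.

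SEL1L is the partner of the ubiquitin ligase HRD1 in the ERAD complex of the ER membrane. The signal of 202061_s_at was 11042 in the PRAME knock-down cells and 9607 in the control cells (log2 ratio 0.16). The remaining probe sets 202064_s_at, 202062_s_at and 202063_s_at had log2 ratios between -0.14 and -0.024. The signals of these 3 were 2502, 2244 and 281 in the knock-down cells and 2670, 2211 and 287 in the control cells. The range of 0.29 over the 4 probe sets was narrow, and 13.8% of 681 further genes measured by 4 had a narrower one.

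**Figure D2:**
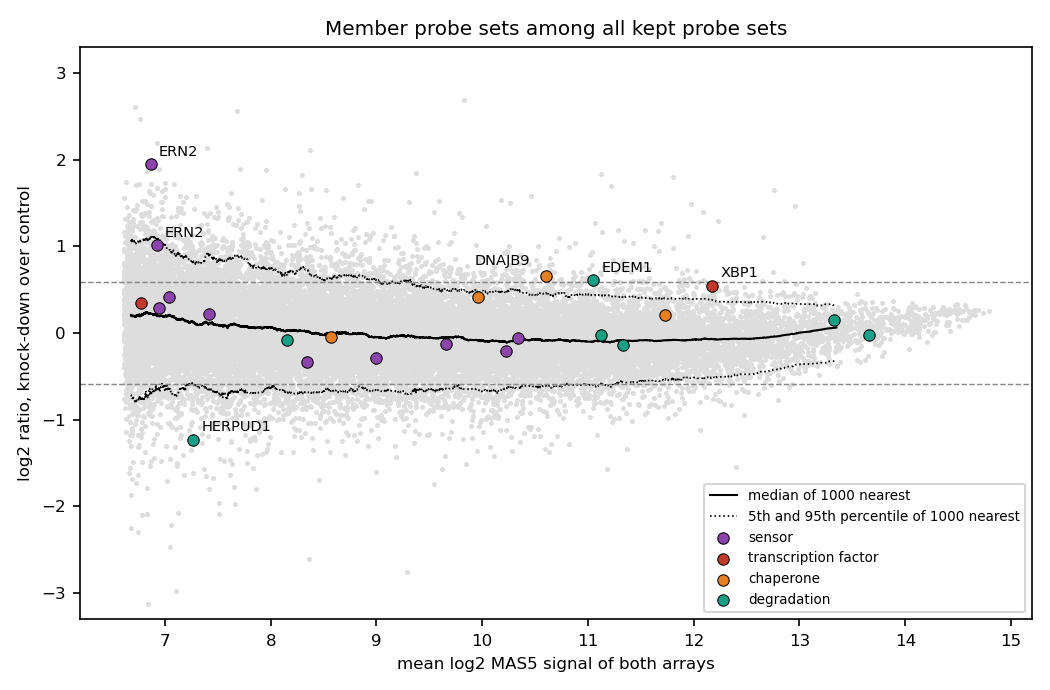
Log2 ratio of PRAME knock-down over control by mean log2 MAS5 signal over the 2 arrays, with grey points for all kept probe sets with a single symbol and colored points for the 23 kept member probe sets by role. Lines show the median and the 5th and 95th percentiles of the 1000 nearest probe sets, and dashed lines stand at 1.5-fold. XBP1 (0.55), EDEM1 (0.61) and DNAJB9 (0.66) lie above the upper line at high signals. The 2 ERN2 points lie at the low end, where the lines are widest, and that of 214372_x_at (1.95) lies above the upper line. HERPUD1 1569380_a_at (-1.23) lies below the lower line.

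The median log2 ratio depended on brightness. The 4812 kept single-symbol probe sets with mean signals of 100 to 200 had a median of 0.13, and it was -0.088 for the 5848 with signals of 1000 to 4000. The probe sets of ERN2 and the ERN1 probe sets 207061_at and 235745_at lay in or near the lower range, whereas those of EDEM1 and DNAJB9 lay in or near the upper one. After subtraction of this trend by loess, ERN2 had a log2 ratio of 0.82, EDEM1 one of 0.70 and XBP1 one of 0.60.

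Further genes of the pathway were taken from lists by role, and their counts stand beside 7.54% higher and 5.42% lower among all genes. Of 17 measured chaperones and folding enzymes of the ER, 5 had a log2 ratio above 0 and 12 below 0, none was at least 1.5-fold higher and 1 was lower, and the median log2 ratio was -0.11. The lower gene was the ER oxidase ERO1B, with a signal of 824 in the PRAME knock-down cells and 1362 in the control cells (log2 ratio -0.77, and -0.19 in its other probe set). HSPA5, which encodes BiP, the chaperone that binds the sensors, had a signal of 7546 in the knock-down cells and 6255 in the control cells (log2 ratio 0.23), and its other probe set was past 1.5-fold higher (0.62). The chaperone HSP90B1, named after its values were seen, had 1643 and 1067 for 216449_x_at (log2 ratio 0.58), just below the threshold, and the log2 ratio was -0.015 in its other probe set. HSP90B1 passed the threshold without centering (0.62), after quantile normalization (0.67), after loess (0.66) and at the 75th percentile (0.64). It stayed below it with the offset (0.55), without a filter (0.48) and with the median over its probe sets (0.28). No probe set of HSP90B1 was left without those that end in _s_at, _x_at or _a_at. CALR (-0.51) was past 1.5-fold lower without a filter (-0.61). The centering then used all probe sets, which lowered every log2 ratio by the same amount.

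In the ERAD list, 1 of 18 measured genes was at least 1.5-fold higher and none was lower, which is near the share of all genes, with a median of -0.021. The higher gene was DERL3, a derlin of the ER membrane and a known XBP1 target, with a signal of 233 in the PRAME knock-down cells and 85.6 in the control cells (log2 ratio 1.40 for 229721_x_at). Its other kept probe set had a log2 ratio of 0.68, and 229721_x_at passed the filter only through the knock-down cells. SYVN1, which encodes HRD1, was not analyzed here, since its probe set carries 2 symbols. In the list of translocation and ER-Golgi transport, no gene of 21 passed 1.5-fold in either direction. Of these genes, 16 had a log2 ratio below 0, with a median of -0.094. Without a filter SSR4 (-0.65) and SEC24D (-0.62) of this list were past 1.5-fold lower, through the same shift of all log2 ratios by the centering. The same held for UBE2J1 (-0.62) of the ERAD list.

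Genes of the PERK branch, the related eIF2 alpha kinase gene EIF2AK4 included, had a median log2 ratio of 0.13, with 9 of 14 above 0, 1 at least 1.5-fold higher and none lower. CHAC1, a glutathione-degrading enzyme known as a target of the ATF4 pathway, had a signal of 858 in the PRAME knock-down cells and 382 in the control cells (2.18-fold higher). ATF4 itself had a signal of 16053 in the knock-down cells and 12823 in the control cells (log2 ratio 0.28). DDIT3, which encodes the stress factor CHOP, had 2415 in the knock-down cells and 2002 in the control cells (log2 ratio 0.23). SESN2, a stress-inducible sestrin gene named after its values were seen, had 2732 in the knock-down cells and 1827 in the control cells (log2 ratio 0.54, and 0.012 in its other probe set). It passed the threshold after quantile normalization (0.62), after loess (0.62) and at the 75th percentile (0.59), whereas CHAC1 passed it in the original scaling too. Among the 5 genes below 0 were TRIB3 (-0.19) and PPP1R15A (-0.21, and 0.28 in its other probe set). ATF3 had a log2 ratio of 0.022 in its brightest probe set and -1.41 in its lowest one.

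Relatives of ATF6 and the proteases that cut it had a median log2 ratio of -0.11 (12 of 14 genes measured), and none passed 1.5-fold. Without a filter, and through the same shift by the centering, CREB3 was past 1.5-fold lower (-0.59). Partners of IRE1 and of the ligation of XBP1 mRNA had a median of -0.016 over 10 genes, with none higher and 1 lower. This was MAP3K5, which encodes the stress kinase ASK1, with a signal of 2945 in the PRAME knock-down cells and 6176 in the control cells (2.16-fold lower). Its other probe set had a log2 ratio of -0.36. RTCB, the ligase that joins the spliced XBP1 mRNA, had a log2 ratio of -0.011. The signs of the medians of the ERAD and IRE1 lists depended on the scaling, and without centering they were 0.024 and 0.029.

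**Figure D3:**
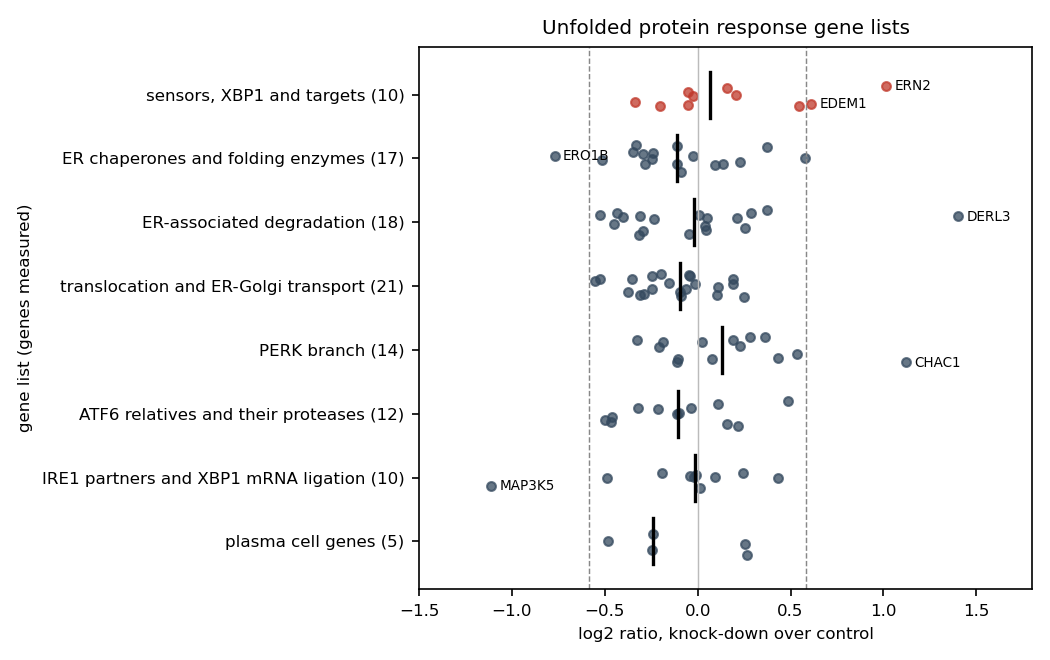
Log2 ratio of PRAME knock-down over control for each measured gene (points) of the sensors, XBP1 and targets (red) and of 7 further lists (blue), with 1 array for each condition, medians as black bars and 1.5-fold as dashed lines. The number of measured genes is given in brackets. Medians lie between -0.24 and 0.13, and single genes such as DERL3 (1.40), CHAC1 (1.12) and MAP3K5 (-1.11) stand far from the median of their list.

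The ERSE was found in windows of XBP1 and of ER chaperone genes. Of 25 genes with the ERSE in a promoter window, 7 were in the list of ER chaperones and folding enzymes (CALR, CANX, CRELD2, ERO1B, HSP90B1, HSPA5 and PDIA6), and SERP1 was in the transport list. The element and the lists were both chosen from knowledge of this pathway, so that this overlap is no result of these data. Of these 25 genes, 14 were measured. Their median log2 ratio was 0.080, beside -0.015 for all 9602 measured genes with a window. None was at least 1.5-fold higher and 1 (ERO1B) was lower. XBP1 (0.55) and HSP90B1 (0.58) had the highest log2 ratios of the 14, and ERO1B (-0.77) and CALR (-0.51) the lowest, so that genes with the same element lay on both sides of 0.

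ERSE-II was found in 19 genes, among them HERPUD1, SDF2L1 and the chaperone HYOU1. The median log2 ratio of its 14 measured genes was -0.11, and 1 (CNKSR1, 0.97) was at least 1.5-fold higher, from a control signal of 91.7 below the filter. The 3 genes of the pathway had log2 ratios of -0.024 for HERPUD1, -0.050 for SDF2L1 and -0.24 for HYOU1. The 112 measured genes with TGACGTGG had a median of -0.0062, with 6 higher and 5 lower by 1.5-fold, beside 661 higher and 521 lower of the 9602 genes with a window. The higher members EDEM1 and DNAJB9 held none of these motifs in their windows, which says only that these letters are not there.

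**Figure D4:**
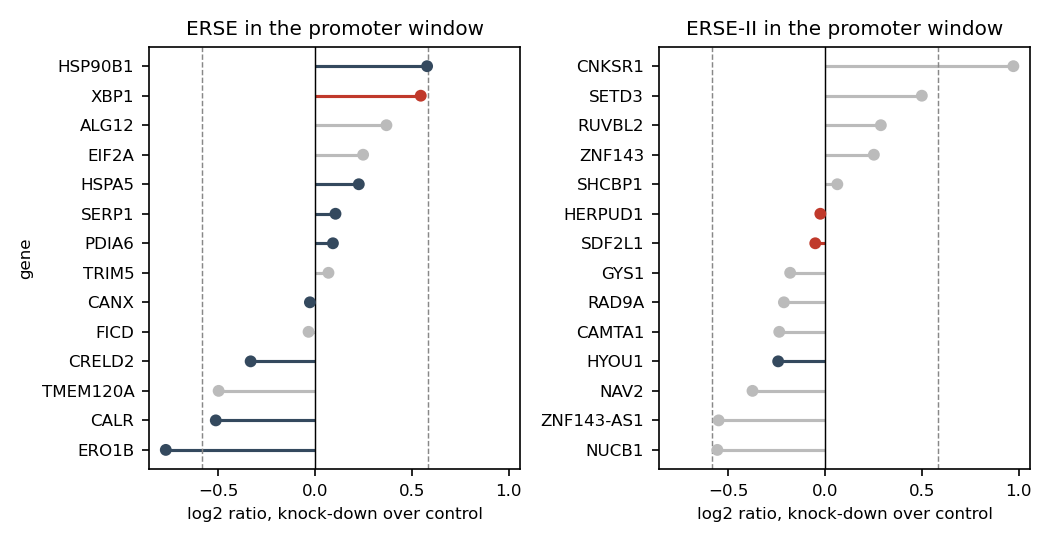
Log2 ratio of PRAME knock-down over control for the 14 measured genes with the ERSE (left) and the 14 with ERSE-II (right) in a promoter window, with members in red, genes of the pathway lists in blue, other genes in grey and 1.5-fold as dashed lines. XBP1 (0.55) lies near the top of the ERSE genes and ERO1B (-0.77) at the bottom, whereas HERPUD1 and SDF2L1 lie close to 0 among the ERSE-II genes.

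The cell type of both arrays was checked with marker genes. All 10 markers of Hodgkin and Reed-Sternberg cells passed the filter, with the CD30 gene TNFRSF8 at a signal of 1667 in the PRAME knock-down cells and 1893 in the control cells. None of these 10 markers was at least 1.5-fold higher and 1 (FUT4) was lower. Of 7 B cell markers with a probe set, 5 passed the filter, each with 1 kept probe set, while CD79B and CR2 did not. MS4A1 had a signal of 135 in the knock-down cells and 95.9 in the control cells, which is below the filter signal. CD22 had 150 and 140, PAX5 had 218 and 232 (log2 ratio -0.14), and BLK had 220 and 297 (log2 ratio -0.48). Of the 5 kept B cell markers, 3 had a log2 ratio above 0 and 2 below 0, with a median of 0.054. CD79A was past 1.5-fold higher (log2 ratio 0.85). None of 6 T cell and 5 monocyte markers passed the filter. The CD79A signal was 332 in the knock-down cells and 178 in the control cells, and its part in the results on XBP1 was not tested.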

How the data were processed

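Total RNA of L-428 cells with PRAME knock-down and with control vector was hybridized to 1 array each. The authors deposited linear signal intensities. The submitters' processing notes name MAS5 and Affymetrix Expression Console 1.1. Both arrays had one trimmed mean (500.1 without the highest and lowest 2%).

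From these signals log2 ratios were computed as described above, without the 62 control probe sets. In the platform annotation 41097 probe sets carried 1 symbol, 1801 carried several and 11777 carried none. Of the 41097, 41043 were matched to RefSeq (GRCh38.p14) for current names and gene order. For each gene the brightest kept probe set (mean log2 signal) was used. Differences were described by thresholds of 1.5-fold and 2-fold, since 1 array per condition allows no test and no replicate error. The number of arrays limits the precision.

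Named genes are all members, HSPA5, DDIT3, ATF4, SYVN1, PRAME and list genes past 1.5-fold (up to 4 per list). Other genes were named after their values were seen. Members, lists and motifs other than the core CCACG were chosen with earlier results of these data known. Some list genes, among them SYVN1, TXNDC5, SEC61G, KDELR2 and TRAF2, were not analyzed here. Alternatives were no centering, quantile normalization, loess (span 0.4), an offset of 64, a filter at the 75th percentile, no filter, gene medians over probe sets, and leaving out probe sets that end in _s_at, _x_at or _a_at. The scripts were tested on simulated data. The work was done in Python 3.11.15 with statsmodels 0.14.6 (loess), pandas 2.3.3, matplotlib 3.10.9 and numpy 2.4.6.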

Additional observations from a re-analysis of the deposited data

How the results depend on the processing

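Across 8 alternatives, 495 values were computed again. The tolerance was the pooled SD between probe sets (0.33, divided by the square root of the number of genes for a median), and 1.5 times for a count. Of the values, 455 stayed within it and 40 did not. No named value past 1.5-fold in the main processing changed its sign. ATF3 (0.022) was at -1.43 without probe sets that end in _s_at, _x_at or _a_at. No paired analysis was possible because each condition has 1 array. The count of higher member probe sets was between 2 (without the endings _s_at, _x_at and _a_at, 13 probe sets) and 5. That of lower ones was 0 without these endings and 0 with the filter at the 75th percentile, since HERPUD1 1569380_a_at was left out by both. The median of the members was 0.40 without these endings and 0.21 at the 75th percentile (7 genes in each), and -0.029 without a filter. Without these endings the medians were -0.26 for ER chaperones, -0.22 for transport, 0.025 for the PERK branch, -0.048 for plasma cell genes, 0.049 for ERSE-II genes and -0.054 for genes with TGACGTGG. Without a filter they were -0.21 for ER chaperones, -0.12 for ERAD, -0.19 for transport and 0.038 for the PERK branch. The centering without a filter lowered every log2 ratio by the same amount. The ERAD median was -0.18 at the 75th percentile and -0.10 with the median over probe sets, which also gave -0.033 for plasma cell genes. The transport median was -0.019 after quantile normalization. The genes with TGACGTGG had medians of 0.039 without centering, 0.043 after quantile normalization and 0.048 after loess. With the median over probe sets the log2 ratio was 0.29 for ERN1, 1.48 for ERN2, -0.63 for HERPUD1 and -0.050 for SEL1L. Over all genes 889 were at least 1.5-fold higher and 639 lower. These counts were 3480 and 2331 without a filter, 254 and 273 at the 75th percentile, and 476 and 463 with the offset of 64. Low signals limit ERN2, DERL3 and XBP1 242021_at, whose control signals were below the filter signal. They also limit HERPUD1 1569380_a_at, whose knock-down signal was near the filter signal.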

Other observations

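Genes of plasma cells, in which XBP1 is known to be active, were taken as a further list. Of 10 genes, 5 passed the filter, and none of these was past 1.5-fold in either direction (median log2 ratio -0.24). PRDM1, which encodes the plasma cell factor BLIMP1, had a signal of 2114 in the PRAME knock-down cells and 2425 in the control cells (log2 ratio -0.24). IRF4 had 5703 in the knock-down cells and 4633 in the control cells (log2 ratio 0.25). CD38, TNFRSF17, JCHAIN, MZB1 and POU2AF1 did not pass the filter, with no signal above 84.5 on either array. The 2 probe sets of SDC1, the CD138 gene, had log2 ratios of 0.26 and 1.28.

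XBP1, SDF2L1 and PRAME lie on chromosome 22, and 6 measured genes lie between SDF2L1 and PRAME. The median log2 ratio of the 271 measured genes of this chromosome was 0.069. The 20 measured neighbors of XBP1 had a median of 0.16, with 1 at least 1.5-fold higher and none lower. EDEM1 (0.61) had 19 neighbors with a median of -0.041, and DNAJB9 had 20 with a median of -0.11. For ERN2 on chromosome 16 the 20 neighbors had a median of 0.13. DERL3 is among the 20 nearest measured genes of PRAME and had the highest log2 ratio of them (1.40). Copy number was not measured here, and its part in these ratios was not tested.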
